A study of Homo sapiens with 6 samples.

Results

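To see how isolinderalactone (ILL) affected the genes that build ribosomes, 37 genes of ribosome biogenesis and RNA polymerase I were followed in RNA-seq libraries of HCCC9810 cells. HCCC9810 is an established human cholangiocarcinoma (CCA) cell line, labelled wild type, and ILL is a plant sesquiterpene lactone. Cells received 20 μM ILL or the vehicle DMSO, both for 24 h, with 3 libraries per group from this single line. The 37 genes were taken by symbol from a table of 19470 genes, and all 37 were among the 13066 genes with enough reads to test. The labels do not say whether the libraries came from separate cultures, so p-values measure the spread between these libraries, which may be technical.

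Ribosome assembly begins in the nucleolus, where RNA polymerase I transcribes the ribosomal DNA into one long precursor of the rRNAs. Small nucleolar ribonucleoproteins (snoRNPs) modify that precursor, with box C/D particles guiding methylation of the ribose and box H/ACA particles guiding pseudouridylation. The small subunit processome and a separate set of large subunit factors then fold, cut and assemble the pre-rRNA with ribosomal proteins. Dividing cells make ribosomes at a high rate, and the transcription factor MYC is a known activator of many of these genes.

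Total counts lay between 34282764 and 37758569 per library. Levels are given as read counts scaled to a common library size with TMM factors (CPM), except for the marker sums, which use library totals. The epithelial identity of the cells was checked with 8 biliary epithelial markers, all above 1 CPM in every library, which summed to between 9429 and 9620 CPM in controls and between 9677 and 10234 CPM with ILL. Within this sum 4 markers were lower and 4 higher at an adjusted p under 0.05 with edgeR, against 36.9% and 36.2% of all genes tested, and 2 of those higher passed a fold change of 2. CDH1, or E-cadherin, rose by 2.07 on the log2 scale and CLDN4, a tight junction gene, by 1.41, while the keratin gene KRT18 fell by 0.82. Of 6 blood cell, 5 fibroblast and 4 endothelial markers, CD68, HBB, COL1A1, LUM and CDH5 reached 1 CPM in any library, and the defining markers PTPRC and CD3E had at most 9 counts. The summed blood markers went from between 37.7 and 42.4 CPM to between 109 and 114 CPM, nearly all of it CD68, a lysosomal protein gene. The fibroblast markers summed to between 12.4 and 14.4 CPM in controls and between 16.4 and 18.1 CPM with ILL, and the endothelial markers to at most 1.88 CPM. The part of these markers in the results below was not tested. HBB, which encodes a hemoglobin chain, was counted in replicate 1 of both groups, at 132 and 146 counts, and had 0 counts in the other 4 libraries. Results without either of these libraries stand with the first result.

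The relative mRNA level of nearly all of these genes was lower with ILL. Tested with the quasi-likelihood method of edgeR, with p adjusted over all genes after Benjamini and Hochberg, 35 of the 37 genes were lower with ILL at an adjusted p under 0.05, against 36.9% of all genes tested. None was higher, against 36.2% of all genes, and since the log2 fold change was below 0 in all 37 genes with edgeR and with DESeq2, 0 were higher at an unadjusted p under 0.05 with either tool. The median log2 fold change of the 37 genes was -1.16, where that of all tested genes was -0.0012. At the cutoffs of the study's methods, an adjusted p under 0.05 and a fold change under 0.5, 23 of the 37 genes were differentially expressed genes (DEGs) lower with ILL, against 11.4% of all genes. DEGs higher with ILL made up 12.5% of all genes and 0 of these 37. In 35 genes every ILL library lay below every control library, which was the case for 38.0% of all genes, and in 0 genes every ILL library lay above, against 37.5%. Without control replicate 1, 35 genes were lower at the adjusted p, and without ILL replicate 1 also 35.

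**Figure D1:**
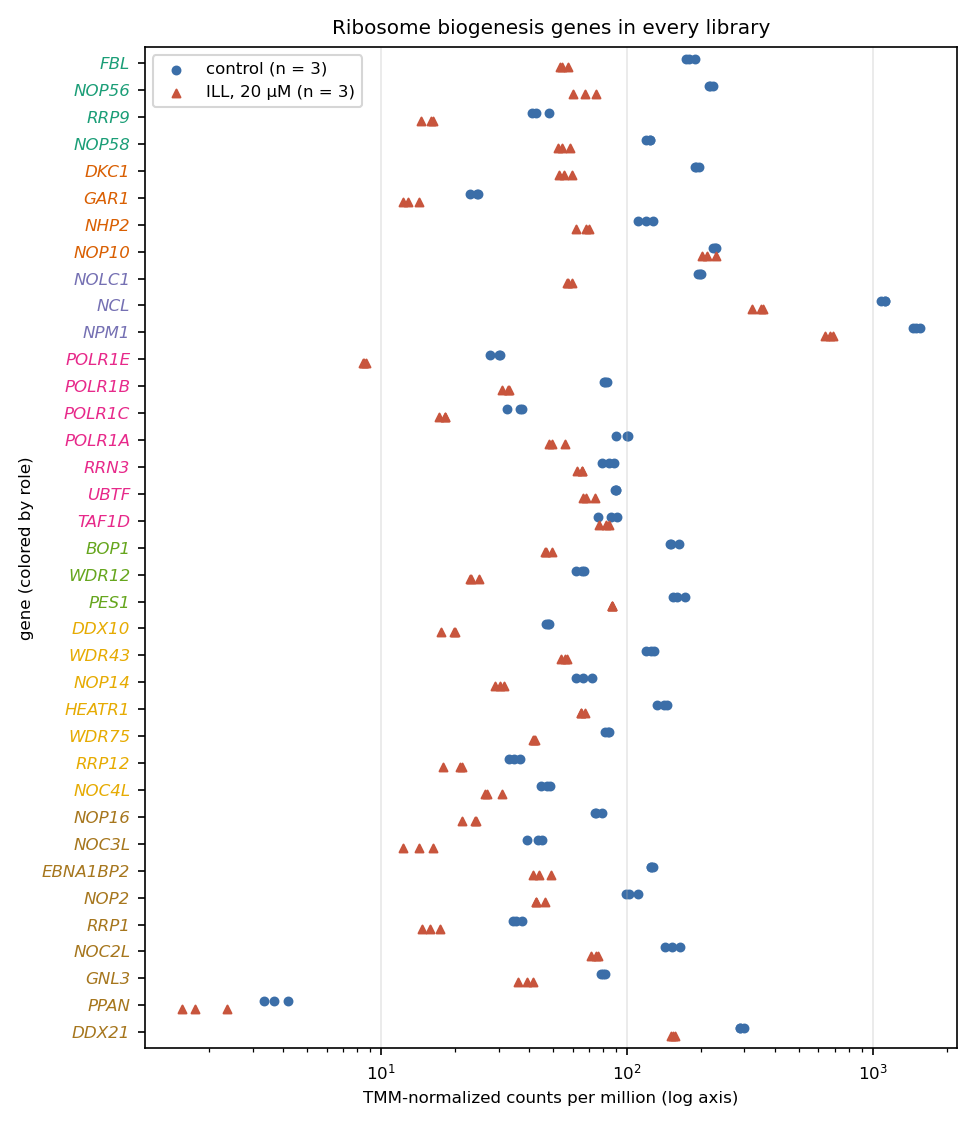
TMM-normalized CPM (log axis) of the 37 genes in each of the 6 libraries, with circles for the 3 control libraries and triangles for the 3 ILL libraries, and gene names colored by role. The ILL libraries sit below the control libraries in 35 genes, and the groups overlap in NOP10 and TAF1D.

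Taken as a share of all reads, the 37 genes held 0.645%, 0.646% and 0.637% of the counts in control libraries 1 to 3 and 0.268%, 0.266% and 0.275% in ILL libraries 1 to 3. Every ILL library was thus below every control library, with little spread inside either group. NCL and NPM1 alone gave between 40.6% and 42.5% of the genes' counts in controls and between 36.3% and 36.8% with ILL. Leaving these abundant genes out, the share was between 0.371% and 0.378% in controls and between 0.170% and 0.174% with ILL. These are shares of the mRNA in bulk cells, and fewer cells that express a gene cannot be told apart from less of its mRNA per cell.

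RNA polymerase I and its initiation factors ran from one of the strongest decreases among the 37 genes to a gene that did not pass the test. POLR1E, which encodes the PAF53 subunit of the polymerase, was at 30.2, 27.7 and 30.3 CPM in control libraries 1 to 3 and 8.68, 8.45 and 8.52 CPM in ILL libraries 1 to 3. The groups were far apart, and the ILL libraries were nearly equal to each other. With edgeR, POLR1E fell by 1.78 (log2 scale, with its standard error, SE, of 0.09, and adjusted p = 1.6e-14), a 3.44-fold lower level, and lies on chromosome 9 from 37485935 to 37503697 of GRCh38 in GENCODE release 29. DKC1 and NOLC1, at -1.78 (SE 0.06) and -1.76 (SE 0.05), lay within this SE, so the order of these genes is not settled. Without ILL replicate 3 DKC1 was at -1.83 and POLR1E at -1.78, while without control replicate 2 they were at -1.77 and -1.83. POLR1B, which encodes the second largest subunit, was at 80.3, 82.6 and 81.0 CPM in the control libraries and 32.7, 32.9 and 31.0 CPM with ILL. Here too the groups did not overlap, and POLR1B fell by 1.34 (SE 0.06, adjusted p = 1.4e-15). POLR1A, the gene of the largest and catalytic subunit, was at 90.6, 100.2 and 100.5 CPM in the control libraries and 48.3, 55.8 and 49.4 CPM with ILL, a lower level in every ILL library. Its log2 fold change was -0.92 (SE 0.07), so it passed the adjusted p but not the fold change cutoff. POLR1C, whose product is shared with RNA polymerase III, fell by 0.99 (SE 0.08) and stayed just outside that cutoff.

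Of the factors that bring the polymerase to the promoter, 3 are among the 37 genes. UBTF, the upstream binding factor of the ribosomal DNA, was at 89.5, 89.9 and 89.8 CPM in the control libraries and 67.7, 73.9 and 66.3 CPM with ILL. All control libraries lay above all ILL libraries, and the decrease of 0.37 (SE 0.06, adjusted p = 4.4e-06) corresponded to a 1.29-fold lower level. RRN3, which encodes TIF-IA and links the polymerase to its promoter-bound factors, was at 88.8, 79.1 and 84.7 CPM in the control libraries and 65.4, 62.5 and 65.3 CPM with ILL. It fell by a similar 0.39 (SE 0.06, adjusted p = 3.7e-06), again without overlap. TAF1D, a TBP-associated subunit of the SL1 promoter factor, was at 90.9, 86.2 and 76.2 CPM in the control libraries and 82.3, 76.9 and 84.4 CPM with ILL. Its libraries overlapped, and the log2 fold change of -0.06 (95% confidence interval -0.19 to 0.08, adjusted p = 0.437) did not pass the test. The intervals of TAF1D, UBTF and RRN3 all lay above that of POLR1A, which reached from -1.06 to -0.79, although the differences between genes were not tested.

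**Figure D2:**
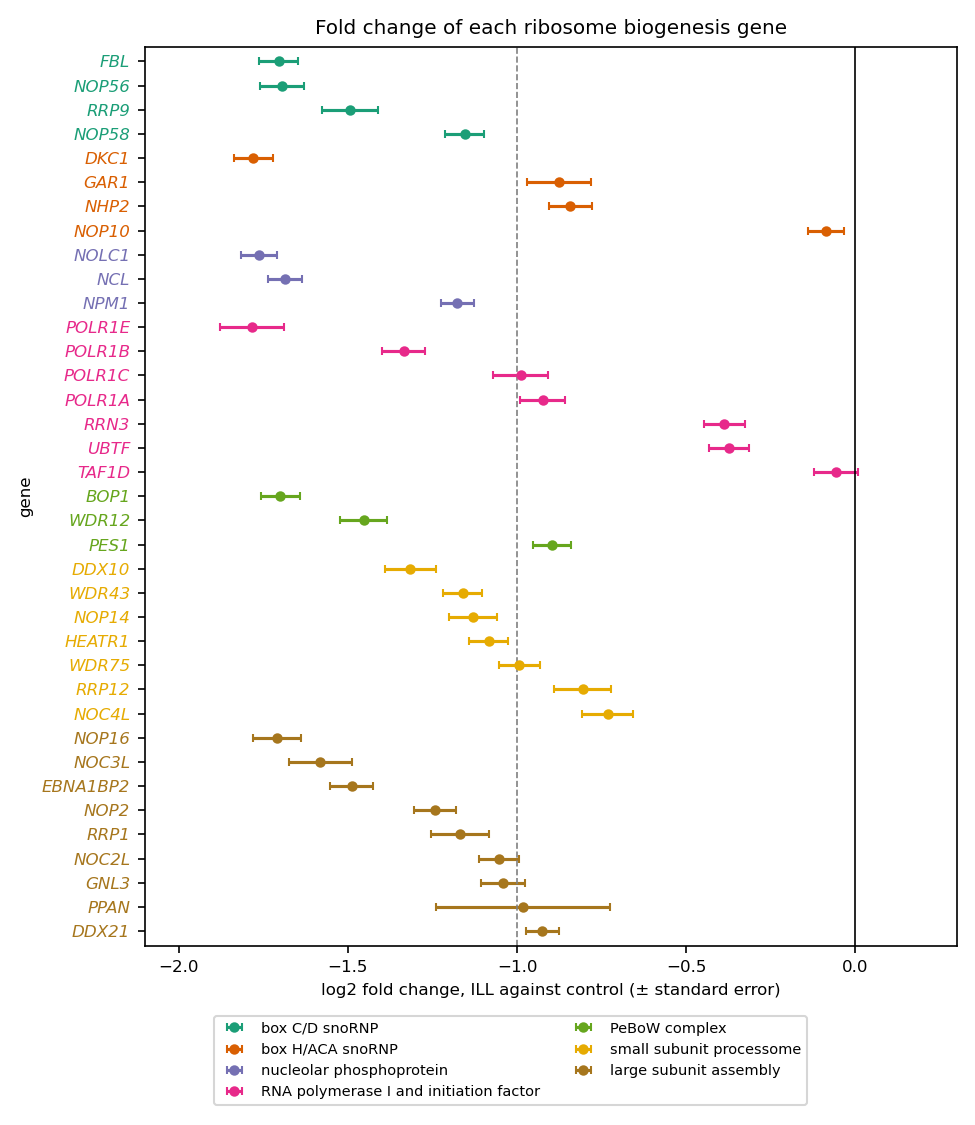
Log2 fold change of ILL against control for each of the 37 genes, with the standard error from edgeR's fit of 3 against 3 libraries, grouped and colored by role. The dashed line marks a fold change of 0.5, and the values run from -1.78 for POLR1E to -0.06 for TAF1D.

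The abundant nucleolar phosphoproteins NCL, NPM1 and NOLC1 were all DEGs lower with ILL, against 11.4% of all genes tested. NPM1, or nucleophosmin, a chaperone of ribosome assembly, had the most reads of the 37 genes, at 1500.3, 1556 and 1456 CPM in control libraries 1 to 3 and 672, 639 and 686 CPM in ILL libraries 1 to 3. The ILL libraries held less than the lowest control library by a wide margin, and NPM1 fell by 1.18 (SE 0.05, adjusted p = 7.2e-17 with edgeR). NCL, or nucleolin, which binds pre-rRNA and acts in its transcription and processing, was at 1116, 1119.5 and 1083 CPM in the control libraries and 323, 357 and 352 CPM with ILL. No ILL library came near a control library, and its decrease of 1.69 (SE 0.05, adjusted p = 1.8e-19) was larger than that of NPM1, with intervals of -1.79 to -1.58 for NCL and -1.28 to -1.08 for NPM1. NOLC1, also called Nopp140, a chaperone that binds snoRNPs, was at 197, 194 and 199 CPM in the control libraries and 57.3, 57.1 and 59.7 CPM with ILL. Both groups were tight, and the log2 fold change of -1.76 (SE 0.05, adjusted p = 2.9e-19) was among the strongest decreases, a 3.39-fold lower level. Its gene lies on chromosome 10 from 102152176 to 102163871.

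All 4 genes of box C/D snoRNPs were DEGs lower with ILL, against 11.4% of all genes tested. FBL, or fibrillarin, the methyltransferase of these particles, was at 173, 178 and 188 CPM in control libraries 1 to 3 and 54.4, 53.6 and 57.6 CPM in ILL libraries 1 to 3. The ILL libraries held less than the controls in every case, a 3.26-fold lower level with a log2 fold change of -1.70 (SE 0.06, adjusted p = 1.7e-18 with edgeR). The FBL gene lies on chromosome 19 from 39834458 to 39846414. NOP56 and NOP58 encode the paired scaffold proteins of the same particle. NOP56 was at 218, 214 and 223 CPM in the control libraries and 60.1, 67.7 and 74.6 CPM with ILL, and NOP58 was at 119.9, 124 and 124 CPM in the control libraries and 52.4, 58.4 and 54.4 CPM with ILL. Neither gene's groups overlapped, and NOP56 fell by 1.69 (SE 0.06) while NOP58 fell by 1.16 (SE 0.06). RRP9, a protein specific to the U3 particle that guides early pre-rRNA cleavage, was at 47.9, 42.5 and 41.2 CPM in the control libraries and 16.3, 15.9 and 14.5 CPM with ILL. Its decrease of 1.49 (SE 0.08, adjusted p = 3.5e-14) lay between those of the scaffold proteins.

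The box H/ACA genes differed widely among themselves, although their proteins form one core particle. DKC1, or dyskerin, the pseudouridine synthase, was at 191, 196 and 189 CPM in control libraries 1 to 3 and 55.3, 52.9 and 59.7 CPM in ILL libraries 1 to 3. These values do not overlap, and DKC1 fell by 1.78 (SE 0.06, adjusted p = 8.4e-19 with edgeR), a 3.43-fold lower level close to that of POLR1E. The DKC1 gene lies on chromosome X from 154762742 to 154777689. GAR1, which helps release the modified rRNA, was at 24.8, 24.5 and 22.9 CPM in the control libraries and 12.9, 12.3 and 14.2 CPM with ILL, and NHP2, which binds the guide RNA, was at 119.6, 111 and 127 CPM in the control libraries and 69.8, 67.8 and 61.7 CPM with ILL. Both were lower in every ILL library, by 0.88 (SE 0.09) and 0.84 (SE 0.06), and neither passed the fold change cutoff. NOP10, the small protein that joins NHP2 to dyskerin, was at 229, 224 and 230.4 CPM in the control libraries and 212, 203 and 229 CPM with ILL. The highest ILL library lay inside the control range, and the log2 fold change of -0.09 (95% confidence interval -0.20 to 0.02, adjusted p = 0.145) did not pass the test. This call depends on the scaling and on a single library, since NOP10 was lower at an adjusted p of 0.0109 when libraries were scaled by their total only, at 0.0149 and 0.0152 with limma on log2 FPKM, and at 0.0369 without ILL replicate 3, its highest ILL library.

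The 7 genes of the small subunit processome and its partners were all lower with ILL, against 36.9% of all genes tested. Their log2 fold changes lay between -1.32 and -0.73. DDX10, an RNA helicase, was at 47.8, 48.0 and 47.0 CPM in control libraries 1 to 3 and 17.6, 19.8 and 19.9 CPM in ILL libraries 1 to 3. The control libraries were close together and well above the ILL libraries, and DDX10 fell by 1.32 (SE 0.08, adjusted p = 6.5e-14 with edgeR). WDR43, a subunit that joins the nascent pre-rRNA early and is also called UTP5, was at 128, 119 and 125 CPM in the control libraries and 57.2, 53.8 and 55.7 CPM with ILL. It fell by 1.16 (SE 0.06) without overlap. HEATR1 (UTP10) and WDR75 (UTP17) belong to the same early subcomplex, and fell by 1.08 and 0.99 (SE 0.06 and 0.06). NOP14, a scaffold of the processome, fell by 1.13 (SE 0.07). The smallest decreases were in RRP12 and NOC4L. RRP12, which takes part in export of the precursor subunits, was at 34.7, 33.2 and 36.8 CPM in the control libraries and 17.9, 21.2 and 20.8 CPM with ILL, and NOC4L, the partner of NOP14, was at 44.7, 48.6 and 47.3 CPM in the control libraries and 27.0, 31.1 and 26.5 CPM with ILL. The groups stayed apart in both, with log2 fold changes of -0.81 (SE 0.08) and -0.73 (SE 0.08).

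The PeBoW complex of PES1, BOP1 and WDR12 acts in maturation of the large subunit rRNAs. All of its genes were lower with ILL, against 36.9% of all genes tested. BOP1 was at 150.2, 162 and 151 CPM in control libraries 1 to 3 and 47.0, 49.3 and 46.5 CPM in ILL libraries 1 to 3. The groups did not overlap, and BOP1 fell by 1.70 (SE 0.06, adjusted p = 2.3e-18 with edgeR). WDR12 was at 65.8, 62.2 and 66.8 CPM in the control libraries and 22.9, 24.9 and 23.3 CPM with ILL, and fell by 1.45 (SE 0.07). PES1, at 160.1, 153 and 173 CPM in the control libraries and 87.2, 87.2 and 86.6 CPM with ILL, was the least changed of the complex. Its ILL libraries were nearly equal to each other, and its log2 fold change of -0.90 (SE 0.06) did not reach the fold change cutoff.

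Of the other 9 large subunit assembly genes, all were lower with ILL and 7 were DEGs, against 36.9% and 11.4% of all genes tested. NOP16, a nucleolar assembly factor, was at 78.9, 74.6 and 74.0 CPM in control libraries 1 to 3 and 24.1, 21.2 and 24.3 CPM in ILL libraries 1 to 3. The ILL libraries were all below the controls, by 1.71 (SE 0.07, adjusted p = 9.6e-17 with edgeR). NOC3L, which travels with the early large subunit particle, was at 43.3, 39.1 and 45.2 CPM in the control libraries and 16.2, 14.2 and 12.2 CPM with ILL. It fell by 1.58 (SE 0.09) with no overlap. EBNA1BP2, the human EBP2, fell by 1.49, NOP2, an rRNA methyltransferase and old proliferation antigen, by 1.24, and RRP1 by 1.17 (SE 0.06, 0.06 and 0.08). NOC2L, the partner of NOC3L, and GNL3, or nucleostemin, a nucleolar GTPase, were just past the fold change cutoff, with log2 fold changes of -1.05 and -1.04 (SE 0.06 and 0.07). DDX21, an RNA helicase that binds pre-rRNA and snoRNAs, was at 298, 288 and 288 CPM in the control libraries and 154, 150.5 and 156 CPM with ILL. Its values did not overlap, and it fell by 0.92 (SE 0.05), which is short of the cutoff. PPAN had by far the fewest reads, at 3.32, 4.16 and 3.68 CPM in the control libraries and 1.54, 2.35 and 1.74 CPM with ILL, or 129, 146, 130 counts in controls and 54, 81, 61 with ILL, and its log2 fold change of -0.98 (SE 0.26, adjusted p = 0.00145) was the least precise of the 37. The value nearest to the cutoff on the outer side was that of WDR75, at -0.99, and the nearest on the inner side was that of GNL3.

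Since the genes of one complex fell by different amounts, the ratios between their transcripts were compared on the length-normalized FPKM scale, where the scaling of a library cancels. The pairs were chosen after their values were seen, and no test was made of them. The ratio of NOP10 to DKC1 was 5.80, 5.54 and 5.90 in the control libraries and 18.5, 18.5 and 18.6 in the ILL libraries. It was thus 3.23 times as high with ILL, with almost no spread inside the ILL group. The ratios of NHP2 and of GAR1 to DKC1 were 1.92 and 1.87 times as high with ILL, without overlap. Among box C/D genes the ratio of NOP58 to NOP56 was 0.528, 0.553 and 0.534 in controls and 0.837, 0.827 and 0.699 with ILL. FBL and NOP56 kept a ratio whose groups overlapped, at 1.37, 1.43 and 1.45 in controls and 1.56, 1.36 and 1.33 with ILL. In the PeBoW complex the ratio of PES1 to BOP1 was 1.74 times as high with ILL and that of WDR12 to BOP1 1.18 times, both without overlap. In RNA polymerase I the ratio of POLR1A to POLR1E was 0.468, 0.565 and 0.517 in controls and 0.869, 1.03 and 0.905 with ILL. The ratio of POLR1B to POLR1A was lower with ILL, at 0.753 times its control level, and that of POLR1C to POLR1A overlapped between the groups.

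**Figure D3:**
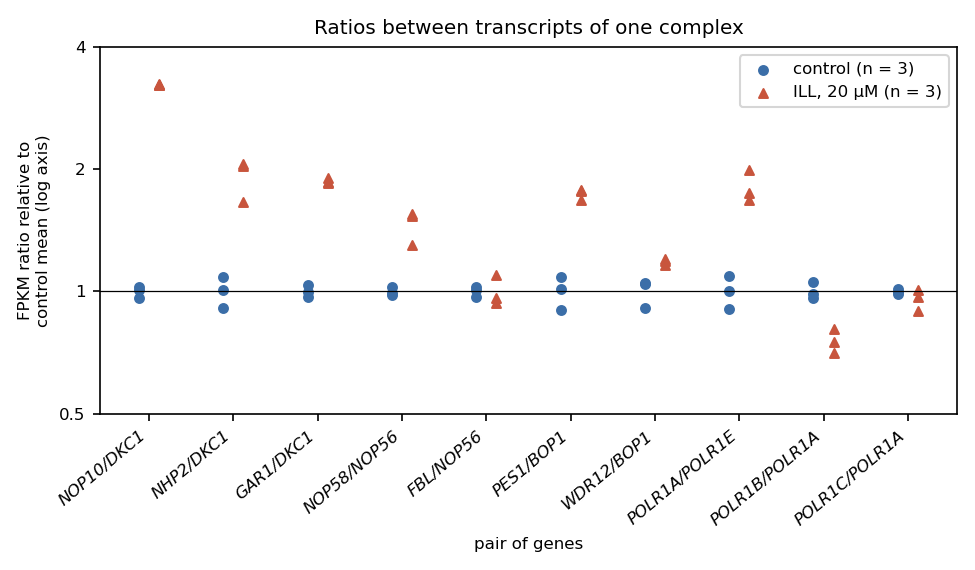
FPKM ratio of 10 pairs of genes from one complex in each library, divided by the mean ratio of the 3 control libraries (log axis), with circles for control and triangles for ILL. The ratio of NOP10 to DKC1 moved furthest, to 3.23 times its control mean, while FBL to NOP56 and POLR1C to POLR1A overlapped.

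Length-normalized levels (FPKM, mean ± SD, n = 3) show how these changes moved the genes relative to each other. In controls NPM1 was highest at 711 ± 25.7 FPKM, followed by NOP10 at 460.3 ± 5.63 FPKM, NCL at 289 ± 6.53 FPKM, FBL at 166 ± 6.40 FPKM and NHP2 at 157 ± 10.5 FPKM. FBL and NHP2, neighbours in this order, had means that did not differ beyond their spread, although FBL was above NHP2 in each control library. With ILL NOP10 was first at 413 ± 27.0 FPKM, above NPM1 at 299.6 ± 12.2 FPKM, NCL at 85.5 ± 4.12 FPKM, NHP2 at 83.2 ± 5.44 FPKM and TAF1D at 48.5 ± 2.52 FPKM. TAF1D moved from place 15 to place 5 and RRN3 from 23 to 16, while DKC1 moved from 7 to 13 and NOLC1 from 14 to 20. NCL and NHP2, and likewise TAF1D and FBL, the latter at 48.4 ± 1.91 FPKM, did not differ beyond their spread with ILL. PPAN was lowest in both groups, at 1.56 ± 0.174 FPKM and 0.751 ± 0.164 FPKM. Across the 37 genes the control FPKM level and the log2 fold change had a Spearman rho of -0.215, given as a description over genes that share their libraries.

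**Figure D4:**
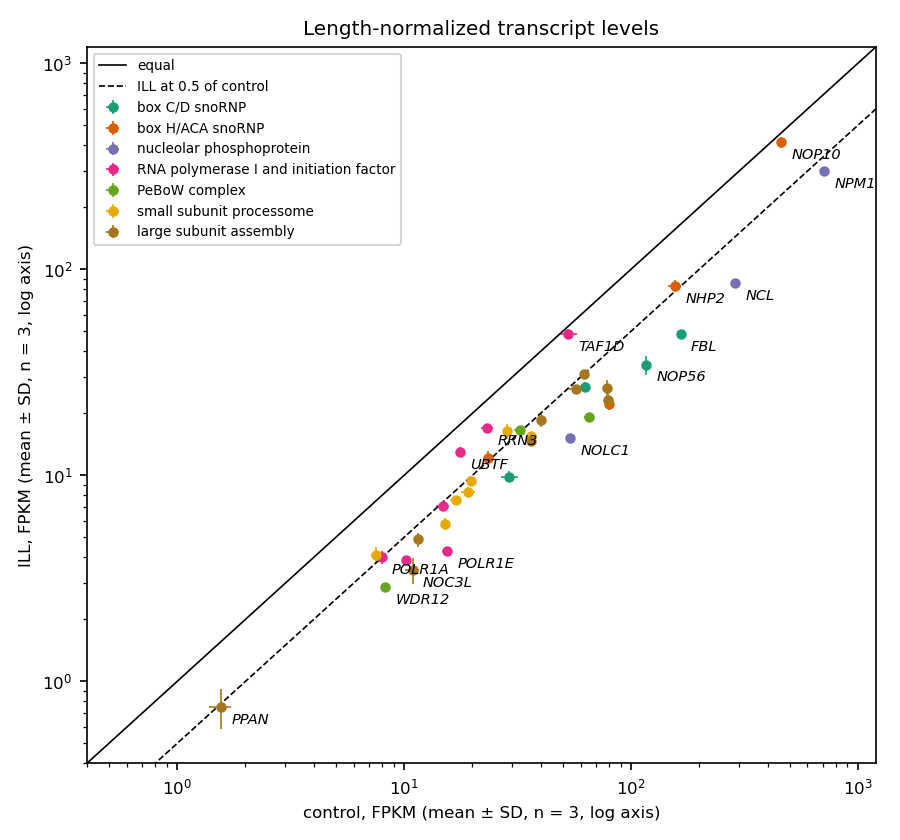
Mean FPKM of each gene with ILL against its mean in controls (both log axes, error bars are SD of 3 libraries), colored by role, with a solid line for equal levels and a dashed line at 0.5 of control. NOP10 and TAF1D lie near the solid line, UBTF and RRN3 between the lines, and FBL, NCL, NOLC1 and POLR1E below the dashed line.

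Other genes of the same pathway, listed by hand with earlier results of these data known, were compared with these 37. Over all genes tested, 36.9% were lower and 36.2% higher. Among 13 further snoRNP proteins and assembly factors 12 were lower and 0 higher, with all log2 fold changes below 0 with edgeR, with a median log2 fold change of -1.04, and the lowest was TCOF1, or treacle, a nucleolar partner of RNA polymerase I, at -2.43. TCOF1 was at 157 ± 2.10 CPM (SD, n = 3) in controls and 29.1 ± 4.08 CPM (SD, n = 3) with ILL, a larger decrease than in any of the 37 genes. RUVBL1, an ATPase of snoRNP assembly, and NOPCHAP1, a snoRNP assembly chaperone, fell by 1.46 and 1.39. Among 44 small subunit factors 43 were lower and 0 higher, again with no log2 fold change above 0 with edgeR, and the median was -0.87. UTP20, a processome protein, DIMT1, an rRNA dimethyltransferase, and PNO1, a late assembly factor, were lowest, at -1.74, -1.63 and -1.60, and the only one not called, PWP2, had 16 or fewer counts in every library. Among 49 large subunit factors 44 were lower and 4 higher, with a median of -0.93. LYAR, a nucleolar protein, and URB2 and RRS1, early large subunit factors, fell by 2.06, 2.05 and 1.92.

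Few genes of these lists rose. EFL1 and SBDS, which together free the large subunit of EIF6 in the cytoplasm, had log2 fold changes of 0.82 and 0.19 (SE 0.09 and 0.05), while EIF6 itself was at -0.01 and was not called. RSL24D1, another late large subunit factor, and NOP53, a nucleolar exosome adaptor, rose by 0.48 and 0.32. Among 17 genes of the RNA exosome and rRNA trimming 15 were lower and 2 higher, against 36.9% and 36.2% of all genes, with a median of -0.65. EXOSC5, EXOSC2 and EXOSC9, structural subunits of the exosome, fell by 1.76, 1.75 and 1.41, while C1D, a cofactor, and DIS3, a catalytic subunit, rose by 0.37 and 0.21.

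Among 17 other RNA polymerase I subunits and factors 14 were lower and 2 higher, against 36.9% and 36.2% of all genes, with a median of -0.64. POLR1G, which forms a dimer with the POLR1E product, was at 59.5, 57.3 and 64.4 CPM in the control libraries and 9.74, 9.99 and 9.55 CPM with ILL. It fell by 2.63 (SE 0.08, adjusted p = 2.0e-19), more than any of the 37 genes, and POLR1F and the shared subunit gene POLR2L fell by 1.12 and 1.09. SIRT7, a nucleolar deacetylase, and BAZ2A, a subunit of the complex that silences ribosomal DNA, rose by 0.59 and 0.42. Of the other SL1 subunit genes, TAF1A fell by 1.03 (SE 0.12, adjusted p = 2.6e-08), TAF1C fell by 0.36 and TAF1B was at -0.05 and was not called. POLR1D, a subunit shared with RNA polymerase III, fell by 0.31 (SE 0.06), so that promoter factors and polymerase subunits covered overlapping ranges. RNA polymerase III, which makes the 5S rRNA and tRNAs, was given as a neighbouring list. Of its 22 genes 15 were lower and 3 higher, against the same shares of all genes, with a median of -0.39. POLR3G and POLR3K fell by 2.32 and 2.21, while POLR3GL, the paralog of POLR3G, rose by 0.66, GTF3C3 by 0.35 and MAF1, a repressor of RNA polymerase III, by 0.30. A list of snoRNA host genes had 0 of its 16 members in the count table and is not analysed here.

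**Figure D5:**
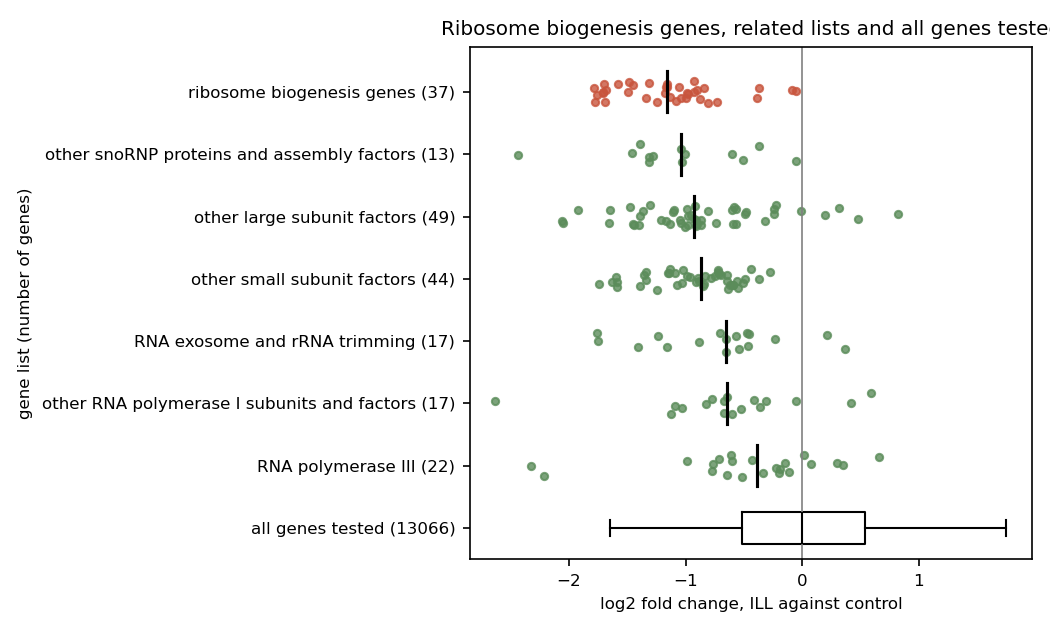
Log2 fold change of ILL against control for the 37 ribosome biogenesis genes (top row), for 6 related lists and for all 13066 genes tested, with 1 point per gene, a black bar at each list's median, and for all genes a box of the quartiles with whiskers from the 5th to the 95th percentile. The medians run from -1.16 for the 37 genes to -0.39 for RNA polymerase III, against -0.0012 for all genes.

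The annotation shows which of these values could include reads of other transcripts. In GENCODE release 29, exons of 12 of the 37 genes overlap those of another coding gene. NOP16, POLR1C, TAF1D, GNL3, HEATR1, NHP2, PES1, WDR12, NOC2L and EBNA1BP2 overlap genes of the opposite strand, and whether the counting used strand is not given in the sources used here. NOP2 and PPAN overlap genes of the same strand, for PPAN the read-through gene PPAN-P2RY11, so that its low count is uncertain. NPM1 has 45 annotated pseudogenes named after it, and 7 other members have 2 or 3, so reads of these genes may be split between copies. Introns or exons of 8 of the 37 genes hold 32 annotated snoRNA genes on the same strand, so that one primary transcript carries both products. TAF1D, which did not pass the test, holds 8 of them, more than any other member. NOP56 and GNL3 hold 5 each, NOP58 4, NCL and WDR43 3 each, and DKC1 and PPAN 2 each. The snoRNAs themselves were not measured here.

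Promoters were then searched for CACGTG, the E-box that MYC and related factors bind, because these genes moved together. RefSeq windows on GRCh38.p14, from 250 bases before each transcription start to 50 bases after it, were matched for 32 of the 37 genes, with 41 windows in all. The motif, which reads the same on both strands, was found in 13 of these windows, or 31.7%. By gene, the motif was in 12 of the 32, against 1290 of the 10482 tested genes that had a window. It was in 9.07% of the 15317 windows of all tested genes and in 7.26% of all 35116 windows. The difference was not tested, and a match is only a stretch of letters and does not show binding. The related lists were not searched on their own. The match nearest to the start is printed below for the 12 genes, 30 bases each, 5′ to 3′ on the strand of the gene, with the motif in capitals.
FBL, chr19:39846356-39846385, minus strand: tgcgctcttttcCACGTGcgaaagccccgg
RRP9, chr3:51941892-51941921, minus strand: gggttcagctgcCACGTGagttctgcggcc
NOP10, chr15:34343130-34343159, minus strand: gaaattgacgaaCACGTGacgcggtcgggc
GAR1, chr4:109815781-109815810, plus strand: gggccagaggggCACGTGgcgccggtgagt
WDR43, chr2:28894658-28894687, plus strand: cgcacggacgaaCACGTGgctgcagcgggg
NOP14, chr4:2963374-2963403, minus strand: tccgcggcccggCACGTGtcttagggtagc
PES1, chr22:30591880-30591909, minus strand: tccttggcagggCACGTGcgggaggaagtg
NOP2, chr12:6568242-6568271, minus strand: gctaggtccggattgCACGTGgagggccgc
NOC3L, chr10:94362903-94362932, minus strand: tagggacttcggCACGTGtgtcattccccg
DDX21, chr10:68956604-68956633, plus strand: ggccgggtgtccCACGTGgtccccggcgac
GNL3, chr3:52686026-52686055, plus strand: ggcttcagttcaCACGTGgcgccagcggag
EBNA1BP2, chr1:43172241-43172270, minus strand: tggcgctggagcgattcggtggCACGTGga

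In 11 of these 12 genes the match began between positions -31 and 35 relative to the start, and in EBNA1BP2 at position 42. EBNA1BP2 also held a match at position -237 of another window, which is not printed. Matches occurred in genes with strong decreases, such as FBL at -1.70 and NOC3L at -1.58, and also in NOP10, which did not pass the test at -0.09 and held a further match at position -170. POLR1E, with DKC1 among the most decreased genes, had no window, and neither the DKC1 window nor that of TAF1D held the motif. The 60 bases just before their starts are shown for contrast, as the most and the least decreased genes with a window, and no letter is in capitals.
DKC1, chrX:154762804-154762863, plus strand: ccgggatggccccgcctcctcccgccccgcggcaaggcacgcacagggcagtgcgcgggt
TAF1D, chr11:93741496-93741555, minus strand: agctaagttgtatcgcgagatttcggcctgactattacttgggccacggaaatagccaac

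MYC mRNA itself was at 103, 95.2 and 108 CPM in the control libraries and 61.9, 71.6 and 74.4 CPM with ILL. The ILL libraries were all lower, and MYC fell by 0.56 (SE 0.07, adjusted p = 7.1e-08 with edgeR), a 1.47-fold lower level that is smaller than the decrease of 33 of the 37 genes. The part of MYC in the decrease of these genes was not tested.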

How the data were processed

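RNA-seq counts of HCCC9810 cells treated with ILL or vehicle (3 libraries per group) were analysed. For each library the deposited values are unnormalized counts by gene symbol together with FPKM. The submitters' processing notes name GRCh38 and DESeq2, while the aligner, counting program and annotation are not given in the sources used here. A count divided by a constant length and the library total returned 100% of the 88055 nonzero deposited FPKM values within 0.1%.

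The edgeR fit (edgeR 4.0.16, R 4.3.3) used filterByExpr, which kept 13066 of 19470 genes, TMM and the quasi-likelihood test over all genes, with Benjamini-Hochberg adjustment. Standard errors are the log2 fold change divided by the square root of F. The biological coefficient of variation was 0.0717. Replicate pairs differed beyond counting noise (chi-square per degree of freedom at least 5.09). The fit was tested on simulated data. Promoter windows came from RefSeq and positions from GENCODE 29.

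Members and lists were chosen with earlier results of these data known. Text names all members, MYC and at most 3 called genes at each end of each list, whose groups do not overlap and whose mean reaches 1 CPM. Some list genes are not reported here. EIF6, SBDS, PWP2, HBB, TAF1A, TAF1B, TAF1C, POLR1D and the ratios were chosen after their values were seen. Alternatives were other scalings and filters, DESeq2 1.42.0, a replicate block, each library left out, and limma 3.58.1 on log2 of FPKM plus 1 or 0.1.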

Additional observations from a re-analysis of the deposited data

How the results depend on the processing

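The decrease of these genes changed little with the processing. Over 14 alternatives between 35 and 36 of the 37 genes were lower at the adjusted p, 0 were higher, and between 22 and 26 were DEGs lower with ILL. Of all genes tested, 4821 of 13066 were lower and 4726 higher in the fit reported above. Library size only gave 5277 of 13066 lower and 4293 higher. Limma on log2 (FPKM + 1) gave 4725 of 10571 lower and 3547 higher. Without ILL replicate 3, 4671 of 13223 were lower and 4570 higher. The DEG share of all genes under the alternatives is not given here. For 36 genes the direction and the call at the adjusted p were the same in all 14 alternatives, TAF1D remaining uncalled. NOP10 was called lower in 4, namely library size only, both FPKM fits and without ILL replicate 3. DEG calls near the fold change cutoff did change. GNL3 was outside it at -0.99 without ILL replicate 1, and POLR1C was inside it at -1.05 without control replicate 1. The median log2 fold change of -1.16 was -1.22 with library size only, -1.11 when limma was run on log2 (FPKM + 1) and -1.22 on log2 (FPKM + 0.1). With library size only the median of all genes moved to -0.07, and the median of the 37 genes lay 1.15 below it, as it did with TMM. FPKM values are also scaled by library totals, without TMM factors. In the fits on FPKM plus 1 and plus 0.1 the median of all genes was -0.09 and -0.10. The part of this scaling in the FPKM fits was not tested. Without 1 library the median of the 37 genes ranged from -1.18 to -1.13. The log2 fold change of PPAN was -0.55 with FPKM plus 1, a scale on which low values are compressed. Replicate numbers are shared by the groups, but over the genes tested same-numbered libraries did not deviate together (correlations between -0.0218 and 0.0107). HBB, which was not among the genes tested, was counted only in replicate 1 of both groups. With a replicate block 35 genes were lower and 23 were DEGs.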
